A study of Mus musculus with 4 samples.

Results

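Plasmacytoid dendritic cells are blood-lineage cells known for making large amounts of type I interferon after their endosomal Toll-like receptors meet viral or self nucleic acid. They arise in bone marrow, depend on the E protein Tcf4 (E2-2) and on Irf8, and in mice carry the receptor Siglec-H on their surface. They were described here in 4 single-cell RNA libraries of sorted mouse cells, 1 library for each combination of gate and genotype label. A cell was a member if it held at least 2 unique molecular identifiers (UMIs, 1 per captured transcript) of Siglech, with Jchain and Lyz2 each under 2% and Elane under 0.5% of its UMIs. Of 3641 barcodes, 3567 had 200 or more genes and less than 10% of their UMIs from mitochondrial genes, and 70 of these were members.

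Per the labels, all cells were sorted as lineage-negative, CD31-positive, VE-cadherin-positive and endomucin-positive, and were split by Sca-1. The Sca-1-positive gate is called type H after a bone capillary type, and the Sca-1-negative gate sinusoidal. All mice carried CDH5-CreER and received tamoxifen on 5 consecutive days. The knockout label stands for ID1-/- ID3-/-, and the control label, called WT in the titles, for ID1+/+ ID3+/-. The control mice therefore also lacked 1 copy of Id3. Id1 and Id3 are HLH proteins without a DNA-binding region that hold E proteins such as Tcf4 off DNA. Cdh5 drives the CreER chiefly in endothelial cells. How many mice were pooled for a library, how old they were and which part of Id1 or Id3 was removed is not stated in the sources used here.

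The members' RNA content was even between libraries, with a median of 4585 UMIs per member in the type H control, 4243 in the type H knockout, 4794 in the sinusoidal control and 4780.5 in the sinusoidal knockout. Other cells of the same libraries had medians of 6499, 5630, 6355 and 15441 UMIs. The members together held between 38007 and 130332 UMIs per library. Of the barcodes of kept cells, 4 were shared between libraries, and none of these was a member. In the type H control, 1 member stood apart: of its 14740 UMIs 58.1% were haemoglobin, together with 12 Siglech UMIs, and no other member of any library passed 0.216%. It is part of the type H control levels below, and only some results are also given without it. In the sinusoidal knockout 2 dividing members, described further below, held 14837 and 4823 of the 38007 UMIs. They are likewise part of that library's levels unless stated.

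The label of the class held up against its markers. Every member had a UMI of at least 7 of 12 other plasmacytoid dendritic cell markers, with a median of 11. The membership threshold fell in a gap. The 5 members with 2 or 3 Siglech UMIs had 9 to 12 of the other markers, while the 14 cells just outside, with 1 Siglech UMI, had at most 5 and a median of 2.5. Those 14 cells held no UMI of Cox6a2, Ccr9, Spib, Ly6d, Klk1 or Pacsin1. The ceilings on Jchain, Lyz2 and Elane removed no cell in any library. Among the 2609 cells under the same ceilings with no Siglech UMI, 22 had at least 6 of the 12 markers.

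Members made up 3.10% of the kept cells of the type H control (25 of 806, exact 95% binomial interval 2.02% to 4.54%) and 1.35% of the type H knockout (25 of 1857, 0.873% to 1.98%). They made up 3.99% of the sinusoidal control (14 of 351, 2.20% to 6.60%) and 1.08% of the sinusoidal knockout (6 of 553, 0.399% to 2.35%). The share in the knockout was 0.434 of that in the control in the type H gate and 0.272 in the sinusoidal gate, so both control libraries lay above both knockout libraries. Members with 5% or more mitochondrial UMIs numbered 12, 11, 2 and 2 in the same order, and with a filter of 500 genes and 5% mitochondrial UMIs the type H shares were 1.76% and 0.843%. These intervals cover counting error only. With 1 library per group no test of the share was made, and the mouse, the sort and the library cannot be told apart from the genotype.

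**Figure D1:**
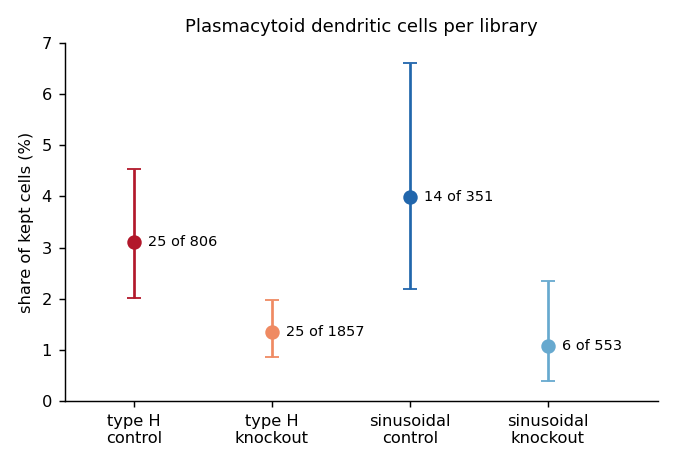
Share of plasmacytoid dendritic cells among kept cells in each of the 4 libraries, in percent, with exact 95% binomial intervals that cover counting error only. The control libraries lie at 3.10% and 3.99% and the knockout libraries at 1.35% and 1.08%.

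The 4 marker genes that define the class were followed first. Siglech (chromosome 7, 55768178 to 55778925, GRCm38), whose product signals through DAP12, chose the members, so its level of 1447 to 1975 CPM in members, from 2 to 21 UMIs per cell, (UMIs scaled to a common library total) is a description. Cox6a2 (chromosome 7, 128205435 to 128206387) encodes the muscle-type form of a cytochrome c oxidase subunit. It stood at 936 CPM in members of the type H control, 1380 in the type H knockout, 1858 in the sinusoidal control and 1184 in the sinusoidal knockout, against 2.25 to 8.0 in the other cells of the 4 libraries. It was the only one of 12 measured oxidase subunit genes at least 4-fold higher in members, while its relative Cox6a1 was 1.06-fold to 1.94-fold higher. Ccr9 (chromosome 9, 123678439 to 123784330), a chemokine receptor for homing to gut and thymus, stood at 522, 802, 615 and 421 CPM in the same order, against 4.18, 3.11, 0 and 0.121 in other cells. Irf8 (chromosome 8, 120736358 to 120756694), a transcription factor of the dendritic and monocyte lineages, stood at 4266, 5127, 4434 and 3631 CPM. Other cells of the sinusoidal libraries held more Irf8 (162 and 307 CPM) than those of the type H libraries (28.1 and 24.4 CPM), so the ratio ran from 11.8-fold (exact 95% interval 9.89 to 14) in the sinusoidal knockout to 210-fold (181 to 244) in the type H knockout.

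The stretch before a RefSeq start of 4 of the leading genes is shown because E proteins bind the E-box, CANNTG. The class is known to need the E protein Tcf4. The sequences are RefSeq's for GRCm38.p6, the 250 bases before a RefSeq start, 5′ to 3′ on the gene's strand, with each CANNTG in capitals. These starts are not always those of the gene spans given above. The window of Ccr9 lies within its gene's span, and that of Siglech runs past the start of its span. Of 11 genes looked up, 7 had an entry, with 8 windows. The 4 shown were chosen after their matches were seen, and the windows of Pacsin1 and Id3 and the first of 2 windows of Irf8 held no CANNTG.
Siglech (chr7:55767934-55768183, plus strand): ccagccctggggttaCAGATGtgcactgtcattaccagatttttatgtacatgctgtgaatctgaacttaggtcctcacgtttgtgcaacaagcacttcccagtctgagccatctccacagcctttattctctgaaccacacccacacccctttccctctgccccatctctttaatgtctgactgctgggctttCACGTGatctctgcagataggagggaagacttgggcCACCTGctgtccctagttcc
Ccr9 (chr9:123766961-123767210, plus strand): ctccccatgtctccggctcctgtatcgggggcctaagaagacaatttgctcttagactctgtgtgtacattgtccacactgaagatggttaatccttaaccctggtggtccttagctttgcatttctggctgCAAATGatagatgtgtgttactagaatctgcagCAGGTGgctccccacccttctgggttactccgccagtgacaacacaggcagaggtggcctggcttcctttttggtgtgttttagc
Klk1 (chr7:44225110-44225359, plus strand): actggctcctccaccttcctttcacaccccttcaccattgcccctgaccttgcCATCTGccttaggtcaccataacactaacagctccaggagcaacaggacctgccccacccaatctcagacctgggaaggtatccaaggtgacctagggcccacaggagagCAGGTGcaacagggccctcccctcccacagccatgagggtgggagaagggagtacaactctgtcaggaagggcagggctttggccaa
Spib (chr7:44532072-44532321, minus strand): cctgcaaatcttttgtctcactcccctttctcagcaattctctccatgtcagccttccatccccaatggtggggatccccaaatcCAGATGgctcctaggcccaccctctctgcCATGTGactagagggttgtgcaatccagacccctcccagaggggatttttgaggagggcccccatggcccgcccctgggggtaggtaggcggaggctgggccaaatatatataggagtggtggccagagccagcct
Siglech held 3 E-boxes and the other three held 2 each. The form CAGGTG, read on either strand and itself one of the CANNTG matches, occurred 1 time each before Siglech (as CACCTG), Ccr9 and Klk1, and not before Spib. Of all 32851 windows of this length 17.2% held CAGGTG on either strand and 66.2% held CANNTG. Among 8018 windows of the genes tested against other cells the shares were 14.1% and 55.9%, and among 139 windows of the genes higher in members, which come from the tested genes, they were 18% and 69.1%. These shares were not tested. A match of letters is a description, not a binding site.

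Against the other cells of the same library, 144 of 8074 genes tested (1.78%) were at least 4-fold higher in members in all 3 libraries with 10 or more members, and 29 (0.359%) were at least 4-fold lower. Of the 144, 106 had at least 10 UMIs in the members of each of those libraries. Because the members were chosen by gene counts of the same cells, these ratios are descriptions with no test. The 6 members of the sinusoidal knockout were too few for the count and are given as values. Tested means at least 20 UMIs over the kept cells of each of those libraries, and a gene at 0 was set to 3 UMIs, which gives a bound.

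Of 40 genes on a list of plasmacytoid dendritic cell identity, 34 were tested and 26 were at least 4-fold higher, none lower. The median log2 ratio over the list's genes was 4.38 in the type H control, 4.60 in the type H knockout and 4.77 in the sinusoidal control, against -0.13, 0.15 and 0.17 over all genes. With genes at 0 set to their bound the medians were 4.38, 4.59 and 4.74, against 0.22, 0.60 and 0.67. The tested genes that missed 4-fold in some library included Bcl11a, a transcription factor also of stem and lymphoid cells (2.77-fold and 2.82-fold in the type H libraries and 18.1-fold in the sinusoidal control), and Ly6c2 (4.26-fold, 2.06-fold and 0.628-fold). Ly6c2 is a surface antigen shared with monocytes, and other cells of the sinusoidal libraries held 2120 and 2566 CPM of it.

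**Figure D2:**
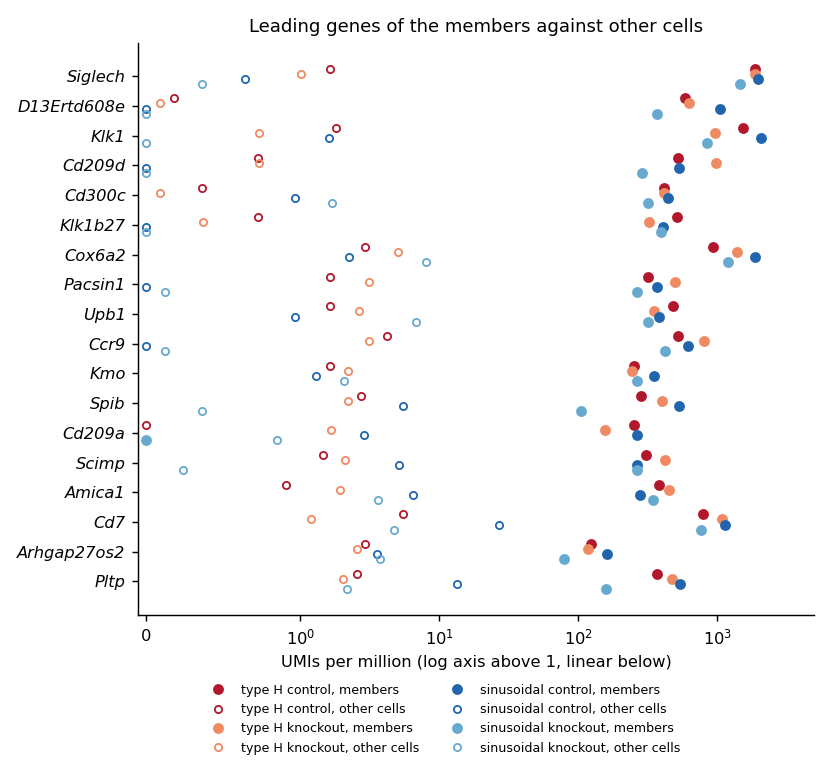
Level in CPM in members (filled) and other cells (open) of each library for the 18 genes with the highest smallest ratio, on an axis that is logarithmic above 1 and linear below. Members of each library lie far to the right of other cells for every gene drawn except Cd209a in the sinusoidal knockout, where its 6 members held no UMI.

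The leading genes after Siglech included surface receptors, enzymes and regulators. Klk1, a tissue kallikrein, stood at 1519, 969, 2048 and 842 CPM in members of the type H control, type H knockout, sinusoidal control and sinusoidal knockout, against 0 to 1.82 CPM in other cells. It was found in 100% of members of the type H control but in 56.0% of those of the type H knockout. Cd209d, a C-type lectin of the DC-SIGN family, stood at 522, 978, 527 and 289 CPM and was found in 50% to 64.3% of members, so a good part of them held no UMI of it. Cd300c, a surface receptor of the CD300 family, stood at 414, 411, 439 and 316 CPM and was found in 80.0% to 100% of members. Pacsin1, a membrane-curving adaptor otherwise known from neurons, stood at 315, 499, 366 and 263 CPM. Kmo, an enzyme of tryptophan breakdown, stood at 253, 245, 351 and 263 CPM, and Upb1, an enzyme of pyrimidine breakdown, at 483, 352, 380 and 316 CPM. For each of these 6 genes every library's members lay above every library's other cells.

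Of 24 tested transcription factors on a list of dendritic factors, 4 were at least 4-fold higher (Irf8, Irf7, Spib and Runx2), beside 1.78% of all genes tested. Spib, an Ets factor that works with Tcf4 in this lineage, stood at 284, 401, 527 and 105 CPM in members, against 0.364 to 5.46 CPM in other cells. Runx2, known from bone and from the exit of these cells from marrow, stood at 284, 430.5, 439 and 421 CPM, against 10.6 to 41.6. Klf2, a regulator of lymphocyte quiescence and trafficking, was 2.86-fold, 2.86-fold and 3.87-fold higher in the 3 larger libraries and so stayed under 4-fold.

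The genes of the E protein and Id family were uneven within the class. Tcf4 stood at 1197, 1556, 1024 and 921 CPM in members, against 99.3, 98.8, 33.1 and 28.1 CPM in other cells, and was 12.1-fold to 32.8-fold higher. Of the 7 tested genes of the family it was the only one at least 4-fold higher. The other E protein genes, Tcf3 and Tcf12, stood at 26.3 to 78.3 and 73.2 to 137 CPM. Id1 had no UMI in any of the 70 members. Id2, which favours other dendritic and innate lymphoid fates, stood at 15.3, 19.6, 0 and 52.6 CPM. Id3 (chromosome 4, 136143497 to 136145755) stood at 115, 313, 205 and 158 CPM in members, against 31.0, 82.8, 51.4 and 84.5 CPM in other cells. Its ratio was 3.71-fold (exact 95% interval 2.03 to 6.29), 3.78-fold (2.57 to 5.38) and 3.98-fold (2.13 to 6.88) in the 3 larger libraries, from 15, 32 and 14 UMIs. In the sinusoidal knockout it was 1.87-fold (0.684 to 4.09), from 6 UMIs. Members of both libraries labelled knockout thus held Id3 tags. These 3' tags check the label only if the deleted part of the gene holds their site, which the sources used here do not give.

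VE-cadherin, the antigen of the sort and the source of the CreER promoter, was found at transcript level mainly in these cells, a pattern singled out after its values were seen. Of 45 Cdh5 UMIs (chromosome 8, 104101625 to 104144511) in all 3567 kept cells, 42 (93.3%) lay in members. Cdh5 was detected in 8 of 25 members of the type H control (14 UMIs), 10 of 25 of the type H knockout (18 UMIs), 4 of 14 of the sinusoidal control (6 UMIs) and 3 of 6 of the sinusoidal knockout (4 UMIs). It was detected in 2 of 781, 0 of 1832, 1 of 337 and 0 of 547 other cells in the same order. Over the libraries that is 35.7% of members (exact 95% interval 24.6% to 48.1%) and 0.0858% of other cells (0.0177% to 0.251%), although other cells held more UMIs each. The 25 Cdh5-positive members held 2 UMIs in all of the 13 endothelial list genes other than Cdh5 and Pecam1, and at most 4 Cdh5 UMIs in a cell. Their median UMI counts were 4544, 3745, 5723 and 4322, against 4585, 4381, 4725 and 5083 in members without Cdh5.

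The other antigens of the sort did not follow Cdh5. Emcn, which encodes endomucin, had no UMI in 70 members and was found in 17.2% of other cells. The exact upper limit of 5.13% is for members with a detected UMI at this depth and does not bound the share that express the gene. Pecam1, which encodes CD31, was found in 27.1% of members and 23.4% of other cells, at 61.4, 48.9, 102 and 78.9 CPM in members. Of the other endothelial genes, Kdr had 1 UMI and Flt1, Flt4, Tek, Tie1, Plvap, Ptprb and Stab2 had none in members. Egfl7, which endothelial and stem cells share, was found in 5.71% of members and 40% of other cells.

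**Figure D3:**
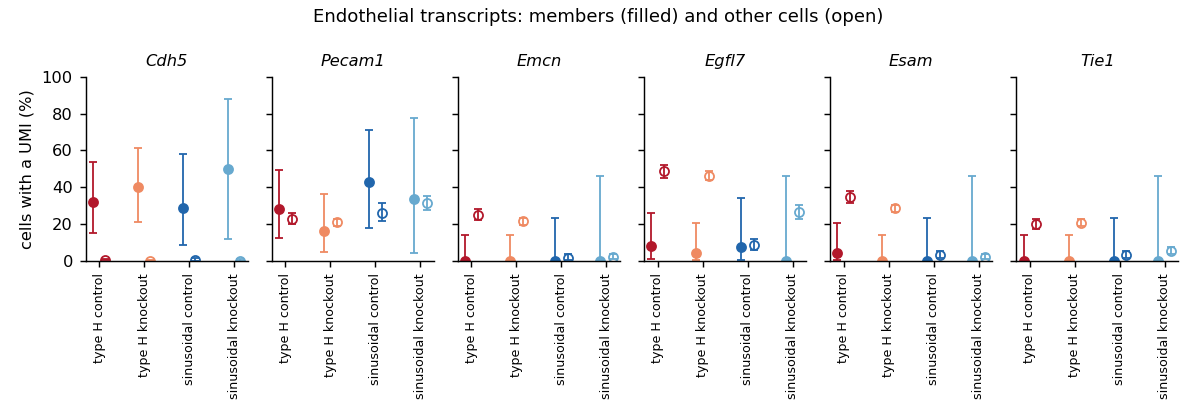
Percent of cells with a UMI of 6 endothelial genes in members (filled) and other cells (open) of each library, with exact 95% binomial intervals that cover counting error only. Cdh5 lies at 28.6% to 50% in members and at or below 0.297% in other cells, while Emcn, Egfl7, Esam and Tie1 lie higher in other cells of the type H libraries.

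Genes of endosomal nucleic acid sensing were partly raised. Of 25 tested, 4 were at least 4-fold higher (Unc93b1, Pld4, Irf7 and Irf8), beside 1.78% of all genes tested. Irf7 and Irf8 are also among the dendritic factors counted above. Unc93b1, the chaperone that carries Toll-like receptors to endosomes, stood at 959, 1233, 980 and 947 CPM in members, against 85.8 to 190 CPM in other cells. Pld4, a lysosomal nuclease of single-stranded nucleic acid, stood at 1473, 1340, 1478 and 1105 CPM, against 12.5, 14.5, 186 and 98.8 CPM. Irf7, the factor that switches on interferon genes, stood at 660, 333, 366 and 105 CPM. The receptors themselves were thinly counted, with Tlr7 at 46.0, 58.7, 132 and 132 CPM and no UMI of Tlr9 in any cell. No UMI of the type I or type III interferon genes on the list was found in members, and Ccl4, a chemokine, stood at 414, 489, 263 and 1052 CPM. Of 32 tested interferon response genes, 4 (Irf7, Bst2, Usp18 and Stat2) were at least 4-fold higher and 1 (Ifitm3) at least 4-fold lower. Over all genes tested these shares were 1.78% and 0.359%.

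Antigen presentation and lysosomal genes followed. Of 9 tested MHC class II genes, 6 were at least 4-fold higher (H2-Aa, H2-Ab1, H2-Eb1, H2-DMb1, H2-Oa and Cd74). None of 14 MHC class I genes was, and of all genes tested 1.78% were. Cd74, the invariant chain, stood at 8870, 8903, 9116 and 3552 CPM in members, against 1373, 1651, 689 and 55.0 CPM in other cells. H2-Aa stood at 2831, 2554, 1873 and 974 CPM, against 203, 230, 124 and 16.4 CPM. Of 15 lysosomal protease genes 5 were higher (Ctsb, Ctsh, Ctsl, Grn and Psap). Ctsl, a cathepsin that cleaves endosomal Toll-like receptors, stood at 1634, 1644, 1317 and 921 CPM, against 18.1 to 55.9 CPM. None of 23 secretory pathway genes reached 4-fold in either direction, with list medians of -0.05, 0.11 and 0.05 on the log2 scale (-0.08, 0.06 and 0.04 with genes at 0 at their bound).

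Of 16 tested genes of immunoreceptor (ITAM) signalling, 5 were at least 4-fold higher, beside 1.78% of all genes tested. These were Siglech, which the membership rule fixed as high, and Lair1, Cd300c, Bst2 and Blnk. Bst2 (tetherin), the antigen of the antibody commonly used for these cells, stood at 4496, 5401, 4872 and 3315 CPM. Tyrobp, which encodes DAP12, the partner of Siglec-H, stood at 5179, 5185, 5414 and 4131 CPM in members. In other cells Tyrobp stood at 79.2 and 48.3 CPM in the type H libraries but at 1836 and 1170 CPM in the sinusoidal libraries, so its ratio was 65.4-fold and 107-fold in the former and 2.95-fold and 3.53-fold in the latter.

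Of 7 tested genes on a list of conventional dendritic cells, 2 (Cd209a and Clec10a) were at least 4-fold higher, beside 1.78% of all genes tested. The list's median log2 ratio was 1.19, 0.70 and 0.15 in the 3 larger libraries (1.19, 2.10 and 0.54 with genes at 0 at their bound). Xcr1, Batf3, Zbtb46 and Itgae had no UMI in members, but other cells held at most 6.75 CPM of any of them. Clec10a, a lectin, stood at 322, 313, 190 and 105 CPM. Flt3, the receptor of dendritic growth, stood at 132 to 176 CPM, while Kit had 1 UMI in all members and Cd34 stood at 0 to 26.3 CPM. The lymphoid gene Dntt, which encodes terminal transferase, was found in 42.9% to 52.0% of members, and Cd4 in 33.3% to 52.0%. Dntt was found in 0.594% to 2.82% of other cells. The B-cell gene Cd79a stood at 0 to 19.6 CPM in members. Ly6d, which marks lymphoid progenitors that can give rise to these cells, stood at 2647, 2818, 3351 and 3289 CPM, against 271, 271, 50.8 and 2.67 CPM in other cells, and Cd7, a lymphoid surface antigen, at 790, 1086, 1141 and 763 CPM.

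Of all genes tested 1.78% were at least 4-fold higher in members and 0.359% at least 4-fold lower. On the lists of other cell types, no gene was at least 4-fold higher among 6 tested B lymphoid, 3 plasma cell, 3 T and NK, 4 monocyte, 10 granulocyte, 7 stem and progenitor, 7 erythroid and megakaryocyte, 1 basophil and mast, and 2 endothelial genes, and Ly6d was the 1 of 8 dendritic progenitor genes and the 1 of 6 Ly6 genes that was. Of the 10 granulocyte genes 5 were at least 4-fold lower, and the list summed to 176, 127 and 2239 CPM in members of the type H control, type H knockout and sinusoidal control, against 2343, 2598 and 53114 CPM in other cells. The plasma cell list summed to 1005, 1154 and 512 CPM, against 29152, 16140 and 610 CPM. In other cells of the type H libraries nearly all of it was Jchain, at 28266 and 15443 CPM. In members of those libraries Jchain, which the membership rule caps, gave 545 and 587 CPM of the sums. The part of these transcripts in the members' other values was not tested. Among general lists, 2 of 18 immediate-early genes (Ier2 and Ier3), 1 of 16 S phase genes (Dut), none of 15 G2 and M phase genes and none of 11 Bcl2 family genes were at least 4-fold lower, and none was higher. A gene at 0 in members was set to 3 UMIs, so it could be called lower only if abundant in other cells. This held for 11 of the 15 G2 and M phase genes in each larger library, so their count does not decide. That list summed to 30.7, 58.7 and 73.2 CPM in members of the type H control, type H knockout and sinusoidal control, against 667, 656 and 1082. In the sinusoidal knockout, with its 2 dividing members, it summed to 3657 CPM in members, against 1720 in other cells. Ier2, an early stress-induced gene, stood at 76.7, 108, 29.3 and 105 CPM, against 615, 769, 411 and 261 CPM. Cd63, a tetraspanin of late endosomes, stood at 30.7, 9.78, 0 and 0 CPM, against 389 to 673 CPM, and was thus low in members of every library.

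Within the class, the Sca-1-positive and Sca-1-negative gates were compared with edgeR's quasi-likelihood test on counts summed over the members of the 3 libraries with at least 10 members. The type H pair is 1 control and 1 knockout library, so the 1 residual degree of freedom is the difference between labels, not between replicates. The sinusoidal side is 1 library, which the fit treats as varying like the others. The adjusted p-values rank genes in these libraries and do not measure a spread between mice. Of 2112 genes, 28 passed an adjusted p of 0.05 (1.33%), 7 higher in the type H gate (0.331%) and 21 higher in the sinusoidal gate (0.994%), with 152 at an unadjusted p under 0.05. The calls were not stable. With a threshold of 1 Siglech UMI the split was 21 higher in the type H gate and 14 higher in the sinusoidal gate, with 18 calls shared. With the sinusoidal knockout in place of the sinusoidal control it was 58 and 52, with 8 shared. DESeq2 called 1 gene, Lyz2, and edgeR called none with all 4 libraries in the fit, or with immunoglobulin, haemoglobin and granule genes left out of the sums.

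Ly6a (chromosome 15, 74994877 to 74998031) encodes Sca-1, the antigen that split the gates, so its difference is a check of the sort. It stood at 1036 CPM in members of the type H control and 528 in the type H knockout, against 87.8 in the sinusoidal control and 52.6 in the sinusoidal knockout. The log2 fold change in edgeR was 3.23 ± 0.44 (SE, adjusted p = 8.87e-11), and it was lost with all 4 libraries (adjusted p = 0.0657 with label and gate in the fit). Other cells showed the same split, at 844 and 703 against 33.1 and 15.8 CPM.

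The remaining higher calls in the type H gate were Jchain, 4 haemoglobin genes and Alas2, an enzyme of haem synthesis. Jchain, the joining chain of secreted antibody, stood at 545 and 587 CPM in members of the type H control and knockout and had no UMI in members of either sinusoidal library (edgeR adjusted p = 5.54e-13). It was found in 100% and 80.0% of the type H members. Other cells held 28266 and 15443 CPM of it in the type H libraries, and 410 and 2.67 CPM in the sinusoidal ones. The members' level was thus 0.0193 and 0.0380 of that of the cells around them. Hbb-bs stood at 35034 CPM in members of the type H control, of which the haemoglobin-rich member held nearly all, at 9.78 in the type H knockout and at 834 in the sinusoidal control. Without that member the type H control level was 17.3 CPM, Hbb-bs became higher in the sinusoidal gate, and edgeR called 25 genes, with only Jchain and Ly6a higher in the type H gate.

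The calls higher in the sinusoidal gate began with genes of granulocytes and monocytes. S100a8 stood at 46.0 and 9.78 CPM in members of the type H control and knockout and at 717 and 158 in the sinusoidal control and knockout (edgeR adjusted p = 4.47e-18). Lyz2, which the membership rule caps, stood at 23, 29.4, 688 and 78.9 CPM, and Elane, likewise capped, at 7.67, 0, 219 and 105 CPM. All 3 Lyz2 UMIs of the sinusoidal knockout lay in its 2 dividing members, so the higher Lyz2 level rests on the sinusoidal control. Other cells differed the same way, with S100a8 at 564 and 643 against 17245 and 9479 CPM. In the sinusoidal control the members' level was 0.0416 of that of other cells for S100a8, 0.0482 for Lyz2, 0.0554 for S100a9, 0.0277 for Elane, 0.0398 for Ngp and 0.0415 for Hbb-bs. The other haemoglobin genes lay lower, with Hba-a1 at 0.00918, Hba-a2 at 0.0129 and Hbb-bt at 0.0155, so the ratios were small but not alike. The part of these abundant neighbours' RNA in the calls was not tested.

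The other calls higher in the sinusoidal gate were Xist and a group that included ribosomal protein genes and their pseudogenes. Of the 21, 10 were ribosomal by name. The share of such names among the 2112 genes tested was not counted, so the 10 are a description. Rpl13a-ps1 stood at 491 and 352 CPM in members of the type H control and knockout and at 1375 and 632 in the sinusoidal control and knockout (log2 fold change -1.62 ± 0.28 SE, edgeR adjusted p = 1.29e-06). Counts of such copies can be split between near-identical genes and are uncertain. Of the 21 calls, 12 differed the same way in other cells of both labels, a share not counted over all genes tested. Xist, the RNA of the inactive X chromosome, stood at 330, 88.0, 805 and 763 CPM. The last value came from 29 UMIs in 1 cell, the dividing member with 4823 UMIs. Without the 2 dividing members the sinusoidal knockout members held 0 Xist UMIs, so the higher level rests on the sinusoidal control. Members with Xist and no Y-linked UMI numbered 4, 2, 5 and 1. Those with Y-linked UMIs and no Xist numbered 15, 11, 3 and 2. Among all kept cells the first kind numbered 170, 142, 62 and 83 and the second 423, 965, 163 and 314. The libraries thus mix cells of both sexes. In other cells Xist did not follow the members, at 359, 160, 179 and 158 CPM in the same order. The part of sex in the calls was not tested.

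**Figure D4:**
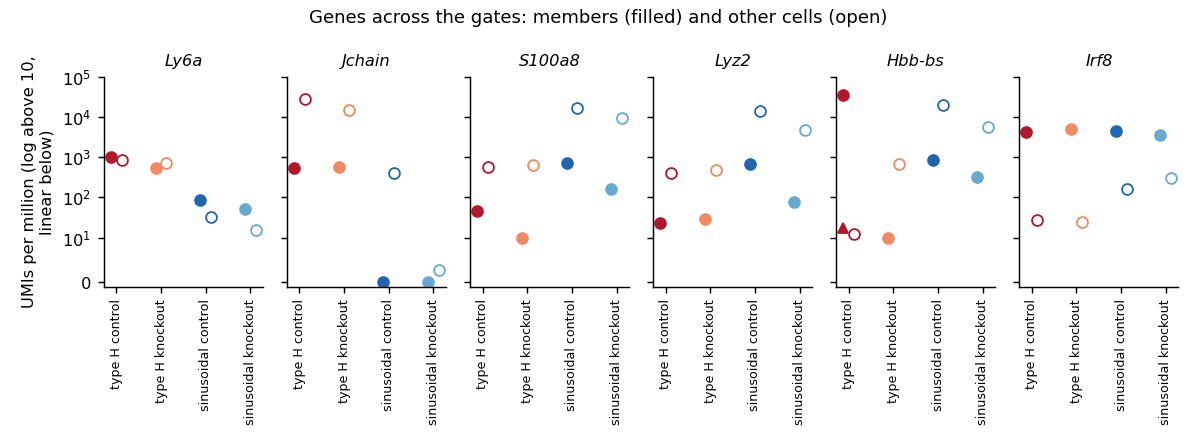
Level in CPM in members (filled) and other cells (open) of each library for Ly6a, Jchain, S100a8, Lyz2, Hbb-bs and, for comparison, Irf8, on an axis that is logarithmic above 10 and linear below. The triangle gives Hbb-bs in the type H control without the haemoglobin-rich member, at 17.3. Jchain in members and other cells is highest in the type H libraries and S100a8 and Lyz2 are highest in the sinusoidal control, with members below other cells in each library, while Irf8 in members stays between 3631 and 5127.

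The genes of the class itself did not pass the gate test. Irf8 differed by 0.14 ± 0.16 on the log2 scale (SE, edgeR), Tcf4 by 0.48 ± 0.27 and Cox6a2 by -0.64 ± 0.26. H2-Aa differed by 0.59 ± 0.23 and Cd74 by 0.02 ± 0.10. Siglech differed by -0.02 ± 0.25, but its count chose the members in both gates, so its value is only a description. With 1 residual degree of freedom, a p above the threshold does not show that the gates are alike.

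The libraries of the 2 labels could be compared within a gate only as values, since each gate has 1 library per label. A further fit took all 4 libraries with gate and label as terms. There edgeR called no gene for the label among 1373, with 47 at an unadjusted p under 0.05. This fit takes in the sinusoidal knockout, whose 6 members are under the minimum of 10, and leaves 1 residual degree of freedom. The absence of calls does not show that the labels are alike. Within the type H gate 255 of 1764 genes (14.5%) were at least 1.5-fold higher in members of the knockout and 161 (9.13%) at least 1.5-fold lower, with no test. The label's own gene Id3 was 2.72-fold higher in type H members of the knockout than of the control (exact 95% interval 1.43 to 5.41, counting error only) and stood at 158 against 205 CPM in the sinusoidal gate. Other cells of the type H gate differed in the same direction, at 31.0 and 82.8 CPM. Jund, an AP-1 factor, stood at 944 CPM in type H members of the control and 1820 in those of the knockout, and at 520 and 1091 in other cells. Irf7 stood at 660 and 333 CPM in type H members, a ratio of 0.504 (0.329 to 0.758), and at 48.8 and 41.1 in other cells.

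The genes with the largest label ratios of the same direction in both gates were thinly counted, and none was tested. Bub3, a spindle checkpoint gene, stood at 69.0 and 196 CPM in type H members of the control and knockout and at 43.9 and 632 CPM in sinusoidal ones. Hnrnpa1, a splicing factor, stood at 161 and 362 CPM, and 307 and 658 CPM. On the lower side Rhog, a small GTPase, stood at 138 and 29.4 CPM in type H members of the control and knockout and at 87.8 and 0 in sinusoidal ones. Lrp10, a receptor of the LDL family, stood at 115 and 29.4, and 117 and 26.3 CPM.

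Of the 6 members of the sinusoidal knockout, 2 are called dividing here, from their counts of cell division genes alone. These 2 had 71 and 67 UMIs of 15 genes of the G2 and M phases, while the other 68 members of all libraries had at most 2. In other cells 6.66%, 7.59%, 29.1% and 69.5% had at least 5 such UMIs in the type H control, type H knockout, sinusoidal control and sinusoidal knockout. The 2 dividing members had 4823 and 14837 UMIs in all, 17 and 52 UMIs of Stmn1, a tubulin regulator, and 2 and 7 of the survival gene Bcl2, which had 1 UMI in the members left once these 2 and the haemoglobin-rich member were set aside. They held 0 and 809 CPM of 13 MHC class II genes, against a median of 11606 to 16835 among members of the other libraries. Both had plasmacytoid identity genes, at 25088 and 10447 CPM over the list of 40, and 10447 was the lowest value of any member. They had 8 and 7 of the 12 other markers, against a median of 11 over all members. Neither held a UMI of Ccr9, Klk1 or Cd209d. The doublet caller Scrublet marked 0 of the 6 members. Whether either barcode held RNA of more than 1 cell was not tested further.

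**Figure D5:**
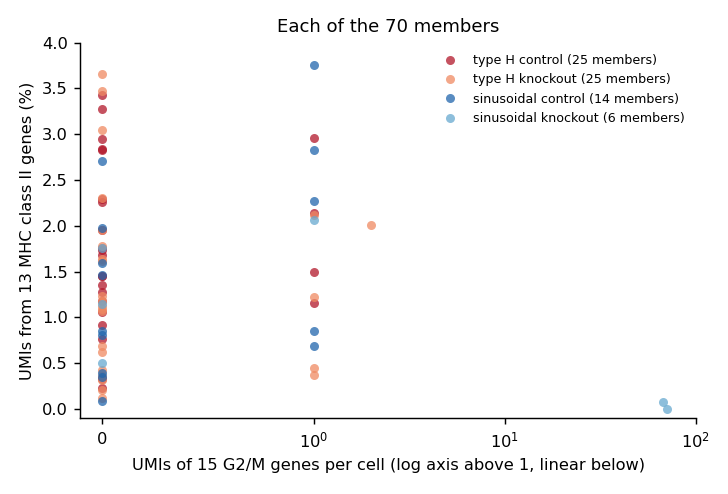
Each of the 70 members by its UMIs of 15 G2 and M phase genes (axis logarithmic above 1 and linear below) and the percent of its UMIs from 13 MHC class II genes, coloured by library. The 2 dividing members of the sinusoidal knockout lie at 71 and 67 on the horizontal axis and near 0 on the vertical axis, while the other 68 lie at 2 or fewer on the horizontal axis and some of them also near 0 on the vertical one.

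With the haemoglobin-rich member and the 2 dividing members set aside, the sums over the lists were as follows. The identity list summed to 32995, 34106, 34034 and 33139 CPM in the type H control, type H knockout, sinusoidal control and sinusoidal knockout, the lysosomal proteases to 15520, 16202, 15949 and 16679, and the sensing genes to 10286, 10469, 9555 and 10247. These 3 lists differed little between libraries. MHC class II genes summed to 19093, 15713, 15276 and 13790 CPM and MHC class I genes to 17320, 12885, 12130 and 10192 CPM, both highest in the type H control and lowest in the sinusoidal knockout. Single genes moved either way in the 4 sinusoidal knockout members left. Ccr9 then stood at 872 CPM, Klk1 at 1744, Cd74 at 7358 and H2-Aa at 2017, each above its value with the dividing members. Bub3 stood lower, at 164 CPM from 3 UMIs. Hnrnpa1 stood at 273 CPM, now below the 307 CPM of the sinusoidal control. The ratio of Id3 between the type H knockout and control was 2.58 (1.34 to 5.24), and that of Irf7 was 0.447 (0.291 to 0.672). In the sinusoidal gate the Id3 ratio was 1.33 (0.375 to 3.91), from 5 and 14 UMIs. It thus lay above 1, while all members gave 158 CPM in the knockout against 205 in the control. All 3 members were set aside after their values had been seen.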

How the data were processed

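Counts are raw UMI counts per gene and barcode, as the authors deposited them, from 10x Chromium capture and NextSeq sequencing per the labels. Cell Ranger, Seurat and mm10 appear in the submitters' processing notes, without versions, and no source used here says whether Seurat changed the matrices. Counts were summed over members and over other kept cells per library and divided by the sum (CPM). Ratios have exact 95% intervals conditional on the total count, and shares exact Clopper-Pearson intervals, both for counting error only. List medians added 0.5 UMI. The gate test was edgeR 4.0.16 with TMM and Benjamini-Hochberg adjustment. The alternative was DESeq2 1.42.0 (R 4.3.3, Python 3.11.15). The edgeR script was tested on simulated data. The design had planned a label test, which needs 4 libraries with 10 members. Scrublet (scanpy 1.11.5) marked 1, 3, 5 and 6 cells per library, 1 of them a member, and did not mark the haemoglobin-rich member; marked cells stayed in. Positions are from GENCODE vM21. Genes named were the 20 with the highest smallest ratio and 10 with the lowest largest ratio to other cells, gate calls and label ratios ranked by the smaller change of both strata, and members of 29 lists, 9 of whose symbols have no match in the files. Members and lists were chosen with earlier results of these data known. Each group is 1 library, so any p-value measures only the spread between these libraries. Some results under the named-gene rule and 1 list are not reported here.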

Additional observations from a re-analysis of the deposited data

Results flagged for a closer look

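Cox6a2 was flagged because its difference between the labels ran in opposite directions in the 2 gates. Its CPM in members of the knockout was 1.47 times that in the control in the type H gate (exact 95% interval 1.15 to 1.89) and 0.637 times in the sinusoidal gate (0.443 to 0.902). The difference between the gates was not tested, since each value rests on 1 library a group, and the intervals cover counting error only. With the haemoglobin-rich member and the 2 dividing members set aside the values were 1.56 (1.20 to 2.04) and 0.792 (0.502 to 1.21).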

How the results depend on the processing

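With 70 members, depth limits most single genes, and 1 library per group limits every comparison. The count of genes called between the gates was 28, and it changed to 5 under a stricter cell filter (500 genes, mitochondrial share below 5%), 1 with DESeq2, 0 with immunoglobulin, haemoglobin and granule genes left out (107 at an unadjusted p under 0.05), 0 in both fits of all 4 libraries (67 and 60 at an unadjusted p under 0.05) and 110 with the sinusoidal knockout in place of the sinusoidal control. Without the haemoglobin-rich member the Hbb-bs log2 fold change was -5.78 in place of 4.51. Under the stricter cell filter the member share was 1.76% in the type H control and 0.843% in the type H knockout, since 12 and 11 members there had 5% or more mitochondrial UMIs (6.79% and 9.99% of other cells). Cells thinned to 2000 UMIs gave 52 genes higher and 14 lower in members, and a threshold of 1 Siglech UMI gave 12 lower. The identity list's median log2 ratio, 4.58 as a mean over the 3 libraries, was 4.32 with 1 Siglech UMI and 4.30 thinned. That of the secretory list, 0.04, was -0.061 with 1 Siglech UMI, -0.047 under the stricter cell filter and 0.25 thinned. The other 95 values of these counts, shares and medians stayed within 1.5 times, the main interval or the spread of the libraries, but the 35 gate calls with 1 Siglech UMI, one of these, were 21 and 14 in direction, against 7 and 21. All-library fits and those without single members were chosen after seeing the data. Leaving out a library from the fit of 3 leaves no residual degree of freedom, so it was not run. No paired analysis was possible because each group has 1 library and the labels carry no replicate numbers.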
